A study of Homo sapiens with 12 samples.

Results

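The genes described here encode 7 enzymes that make or break down steroids: CYP17A1, HSD17B6, AKR1C1, AKR1C2, AKR1C3, CYP1B1 and SRD5A1. They were found by symbol among the 58302 genes of the deposited tables, and all 7 were present, each with 1 Ensembl identifier. RNA was measured by sequencing in a pair of human mesothelioma lines that carry no NF2, a Hippo pathway tumour suppressor, per the labels. One, NCI-H226_CL3, is resistant to the TEAD inhibitor GNE-7883 and was derived from the other by culture in a TEAD inhibitor at concentrations raised in steps between 0.25 and 3 µM. The other, the parental NCI-H226, is sensitive. The groups were resistant cells in GNE-7883, resistant cells in DMSO, sensitive cells in GNE-7883 and sensitive cells in DMSO, with 3 libraries each and 12 in all. Neither the dose nor the length of the last incubation is stated in the sources used here. Only 1 resistant line was profiled, so what separates the lines may be particular to it. The labels name a lung epithelial tissue and a mesothelioma cell type, and all 14 markers on a mesothelial list were measurable in the libraries. The 7 genes were proposed with their levels in these libraries already known, so their values are given as a description: no p-value is printed for them and nothing is concluded from which of them were called.

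CYP17A1 is the cytochrome P450 of the endoplasmic reticulum that turns pregnenolone and progesterone into their 17-hydroxy forms and then into the androgen precursors, and it is best known from the adrenal cortex and the gonads. HSD17B6 oxidises and epimerises 3-alpha-hydroxysteroids such as androstanediol, a step that can return an inactive androgen metabolite to an active one. The aldo-keto reductases AKR1C1, AKR1C2 and AKR1C3 reduce ketosteroids: AKR1C1 inactivates progesterone, AKR1C2 inactivates dihydrotestosterone, and AKR1C3 forms testosterone and prostaglandin F. SRD5A1 is a 5-alpha-reductase that makes dihydrotestosterone, and CYP1B1 hydroxylates estradiol and is a classical target of the aryl hydrocarbon receptor. Steroid production from cholesterol is not a known task of mesothelium.

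The 250 bases before the start of CYP17A1 are shown because this gene has the widest range of the 7, and those of the 3 AKR1C genes to show how alike these neighbouring genes are. They come from RefSeq on GRCh38.p14, which lists a start for 5 of the 7 genes, and are written 5′ to 3′ on the strand of the gene. Capitals mark, in CYP17A1, the motifs AGATAA (the GATA motif) and CAAGGTNA (the motif of NR5A receptors such as SF-1), and in the AKR1C genes ATTGG, the CCAAT box read on the other strand. Other matches in the AKR1C sequences are not in capitals. CYP17A1 is at chr10:102837414-102837663 on the minus strand, AKR1C1 at chr10:4963165-4963414 on the plus strand, AKR1C2 at chr10:5003858-5004107 on the minus strand and AKR1C3, at the first of its listed starts, at chr10:5048531-5048780 on the plus strand. These RefSeq starts lie inside the gene spans of GENCODE 29 given below. The stretches of AKR1C2 and AKR1C3 are wholly inside those spans, and those of CYP17A1 and AKR1C1 in part, with the marked motifs inside.
CYP17A1: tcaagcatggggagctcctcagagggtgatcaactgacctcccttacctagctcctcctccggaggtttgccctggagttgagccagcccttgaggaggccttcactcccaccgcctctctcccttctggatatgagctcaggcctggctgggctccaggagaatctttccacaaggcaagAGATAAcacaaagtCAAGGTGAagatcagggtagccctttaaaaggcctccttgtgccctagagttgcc
AKR1C1: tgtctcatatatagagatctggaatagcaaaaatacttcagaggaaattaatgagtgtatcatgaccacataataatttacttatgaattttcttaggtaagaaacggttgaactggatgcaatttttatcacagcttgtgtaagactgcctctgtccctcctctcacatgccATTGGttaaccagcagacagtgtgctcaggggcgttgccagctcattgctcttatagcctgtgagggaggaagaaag
AKR1C2: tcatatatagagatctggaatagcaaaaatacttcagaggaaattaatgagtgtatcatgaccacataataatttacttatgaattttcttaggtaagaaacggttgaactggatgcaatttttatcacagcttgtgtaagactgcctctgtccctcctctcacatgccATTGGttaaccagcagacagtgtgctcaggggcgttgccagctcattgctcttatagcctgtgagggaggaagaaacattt
AKR1C3: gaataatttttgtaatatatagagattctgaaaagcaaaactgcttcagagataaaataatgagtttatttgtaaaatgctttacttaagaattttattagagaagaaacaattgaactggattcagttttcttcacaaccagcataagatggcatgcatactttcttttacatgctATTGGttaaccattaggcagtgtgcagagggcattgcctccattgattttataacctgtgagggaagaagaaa

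The marked motifs of CYP17A1 begin at positions -69 (GATA) and -55 (NR5A), counted so that -1 is the base just before the start. Both strands were searched in windows of 250 bases before and 50 bases after each start, and a match is a description of letters, not of a bound site. Of 35116 such windows, 3.35% held the NR5A motif, 10.3% the GATA motif and 34.6% a CCAAT box. The window of CYP17A1 held no GGAATG, the TEAD motif (14% of all windows), and no TGANTCA, the AP-1 motif (7.71%). AKR1C3 also held the GATA motif, at -201, and TATAAA, the TATA box (11.5% of all windows), at -26, and at its second listed start it held the TEAD motif at position 28. The motifs were picked for display with the sequences known. Over those windows AKR1C1 and AKR1C2 matched at 288 of 292 aligned positions (98.6%), while AKR1C3 matched AKR1C1 at 80.9% and AKR1C2 at 79.7%.

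Libraries held 31878934 to 46962645 counts, so that the limit set by a count of 0, which is 3 counts, equals 0.0639 to 0.0941 CPM (counts scaled to the library total). Sensitive DMSO replicate 2 stood apart from the other libraries of its group (chi-square per degree of freedom 37.6 and 42.9 against its 2 sister libraries, which differed by 3.21 from each other; pairs in the other groups gave 3.36 to 10.7). Mitochondrial genes held 0.614 to 0.693% of counts in resistant GNE-7883, 0.561 to 0.685% in resistant DMSO, 0.954 to 1.09% in sensitive GNE-7883 and 0.522 to 0.622% in sensitive DMSO libraries. NF2 had 5, 2, 3 and 5 counts in those groups. Whether replicate libraries stem from separate cultures is not stated in the labels. Errors and p-values therefore reflect the spread of these 12 samples alone, and that spread may be technical.

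CYP17A1 was well expressed in the sensitive line and close to the detection limit in the resistant line. It is a protein-coding gene on the minus strand of chromosome 10 (ENSG00000148795, 102830531 to 102837533, GRCh38, GENCODE 29). Levels are RPKM (reads scaled to gene length and library total) from the authors' table unless counts are named. CYP17A1 had 0.284, 0.218 and 0.284 RPKM in resistant GNE-7883 libraries and 0.114, 0.106 and 0.201 RPKM in resistant DMSO libraries, which rest on 25, 17 and 19 and on 9, 9 and 12 counts. It had 324, 334 and 337 RPKM in sensitive GNE-7883 libraries and 52.3, 56.2 and 52.8 RPKM in sensitive DMSO libraries. The 4 groups did not overlap, and their order was sensitive GNE-7883, sensitive DMSO, resistant GNE-7883, resistant DMSO. In bulk RNA, fewer cells with the transcript and less transcript per cell cannot be told apart.

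**Figure D1:**
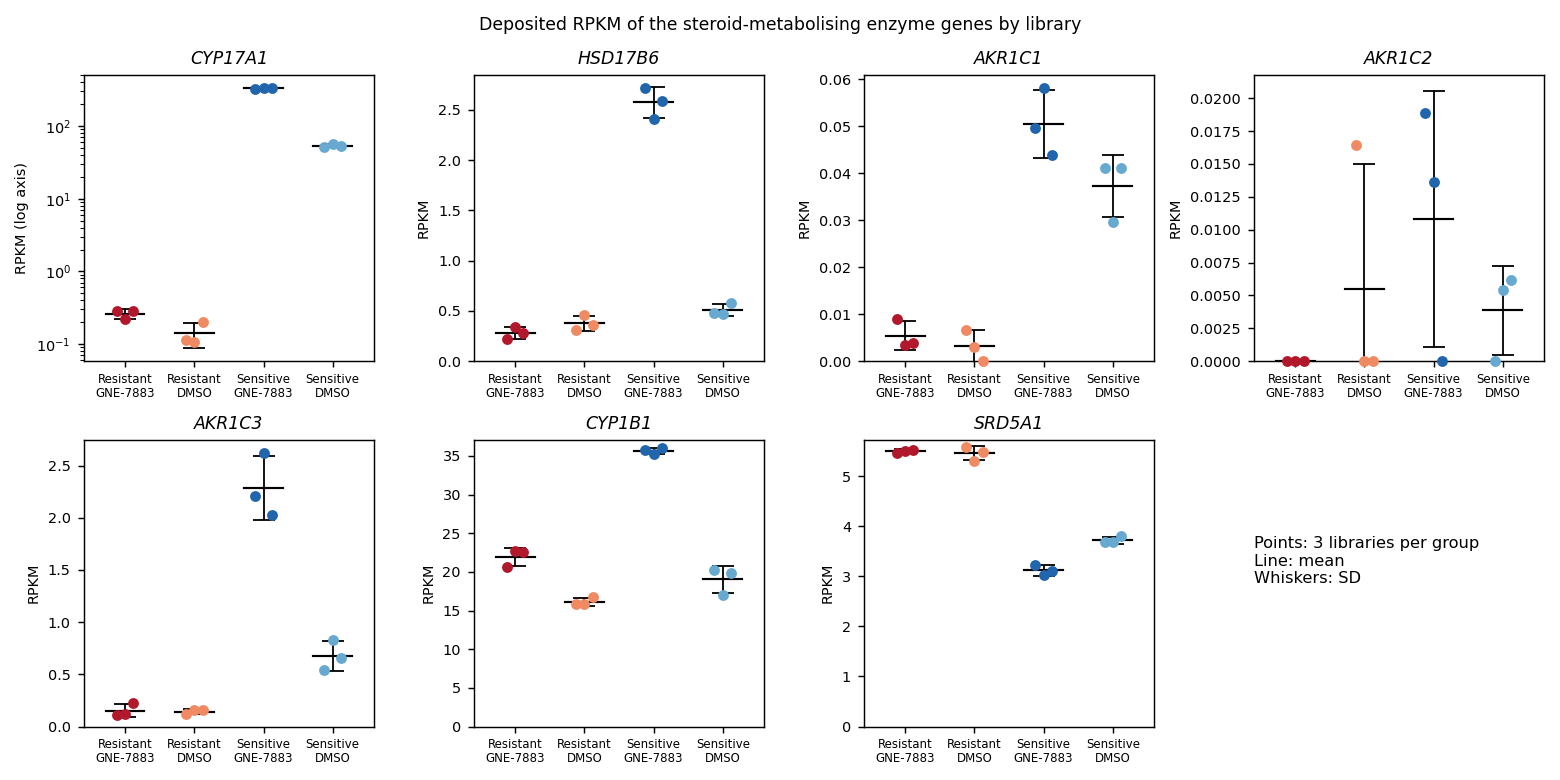
RPKM of the 7 enzyme genes in each library, on a log axis for CYP17A1 and on linear axes that start at 0 for the others; points are libraries, lines are means and whiskers are SDs (n = 3 per group). CYP17A1 lies between 0.106 and 0.284 RPKM in the resistant line and between 52.3 and 337 RPKM in the sensitive line, while SRD5A1 alone has its higher levels in the resistant line.

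As log2 fold changes with standard errors, CYP17A1 was higher with GNE-7883 than with DMSO by 2.63 ± 0.064 in sensitive cells, a 6.18-fold difference. In resistant cells the same contrast was 0.95 ± 0.23, at counts of 17 to 25 against 9 to 12. That value would not be called without resistant DMSO replicates 1 or 2 or without resistant GNE-7883 replicates 1 or 3. The resistant line was 416-fold lower than the sensitive line in DMSO (-8.70 ± 0.11) and 1330-fold lower in GNE-7883 (-10.38 ± 0.10). The response of resistant cells was smaller than that of sensitive cells by 1.68 ± 0.27 on the log2 scale. These folds are between fitted levels, with a low-count group in all but the comparison within the sensitive line. The counting interval of the summed count ratio was 0.0016 to 0.00339 for resistant against sensitive cells in DMSO and 0.000572 to 0.000961 in GNE-7883 (95%, exact, counting error only).

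The annotation places 1417 exonic bases of WBP1L, a gene on the opposite strand, within CYP17A1, which is 41.1% of the exonic bases of CYP17A1. Of the 50-base windows of CYP17A1 transcripts, 31% also occur in WBP1L, and the library kit does not mark strand, so reads from the overlap cannot be told apart. WBP1L, a membrane protein gene, held 57495 counts over the 12 libraries. Its log2 fold change was 0.68 ± 0.052 (adjusted p = 1.63e-08, edgeR quasi-likelihood test) with GNE-7883 in sensitive cells and -0.19 ± 0.052 (adjusted p = 0.00735) between the lines in DMSO. Its part in the CYP17A1 counts was not tested. The 30 to 61 counts of CYP17A1 summed over a resistant group are the upper limit of what the overlap added there.

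HSD17B6 is a protein-coding gene on the plus strand of chromosome 12 (ENSG00000025423, 56752161 to 56787790). It had 0.221, 0.337 and 0.276 RPKM in resistant GNE-7883, 0.307, 0.460 and 0.359 in resistant DMSO, 2.72, 2.41 and 2.59 in sensitive GNE-7883 and 0.476, 0.474 and 0.579 in sensitive DMSO libraries. The sensitive GNE-7883 libraries stood above all others, and the 2 resistant groups overlapped. With GNE-7883 it was higher by 2.34 ± 0.15 in sensitive cells, a 5.07-fold difference, while the value in resistant cells was -0.45 ± 0.23 with a 95% interval of -0.97 to 0.07. The line contrast was -0.50 ± 0.20 in DMSO and -3.29 ± 0.17 in GNE-7883. The response in resistant minus that in sensitive cells was -2.79 ± 0.28. It shares 132 exonic bases with PRIM1, a DNA primase gene on the opposite strand that had 10479 counts.

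AKR1C3 had the highest RPKM of the 3 aldo-keto reductases in every group and the same order of groups in the sensitive line as CYP17A1 (ENSG00000196139, chromosome 10, plus strand, 5035354 to 5107686). It had 0.115, 0.118 and 0.226 RPKM in resistant GNE-7883, 0.116, 0.159 and 0.155 in resistant DMSO, 2.21, 2.62 and 2.03 in sensitive GNE-7883 and 0.541, 0.827 and 0.653 in sensitive DMSO libraries. The resistant groups overlapped each other and lay below both sensitive groups. It was higher with GNE-7883 by 1.76 ± 0.17 in sensitive cells, a 3.39-fold difference, against 0.05 ± 0.36 in resistant cells (95% interval -0.77 to 0.87). The resistant line was lower by 2.30 ± 0.27 in DMSO, and its log2 fold change in GNE-7883 was -4.01 ± 0.22.

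AKR1C1 and AKR1C2 were near the detection limit. AKR1C1 (ENSG00000187134, chromosome 10, plus strand, 4963253 to 4983283) had 3, 1 and 1 counts in resistant GNE-7883, 2, 1 and 0 in resistant DMSO, 13, 14 and 12 in sensitive GNE-7883 and 13, 9 and 11 in sensitive DMSO libraries. The summed counts gave a ratio of resistant to sensitive cells of 0.0907 in DMSO (95% counting interval 0.0178 to 0.289) and 0.107 in GNE-7883 (0.033 to 0.272), scaled for depth. AKR1C2 (ENSG00000151632, chromosome 10, minus strand, 4987400 to 5018031) had at most 3 counts in any library, did not pass the filter on low counts and gets no fold change. Of the 50-base windows of AKR1C1 transcripts 28.3% also occur in AKR1C2, and of those of AKR1C2 38.1% occur in AKR1C1, so the split of counts between these 2 genes is uncertain. For AKR1C3 the share with any other gene was 4.53%.

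CYP1B1 was expressed in every group (ENSG00000138061, chromosome 2, minus strand, 38066973 to 38109902). It had 20.6, 22.7 and 22.6 RPKM in resistant GNE-7883, 15.8, 15.8 and 16.7 in resistant DMSO, 35.8, 35.2 and 36.0 in sensitive GNE-7883 and 20.2, 17 and 19.9 in sensitive DMSO libraries. Resistant cells in GNE-7883 and sensitive cells in DMSO overlapped in library-scaled CPM and are not ordered, with sensitive GNE-7883 above them and resistant DMSO below. CYP1B1 was higher with GNE-7883 by 0.91 ± 0.067 in sensitive and by 0.44 ± 0.067 in resistant cells, 1.87-fold and 1.36-fold. The line contrast was -0.32 ± 0.067 in DMSO and -0.78 ± 0.067 in GNE-7883. The antisense gene CYP1B1-AS1, at 161 counts in all, shares 11.3% of the exonic bases of CYP1B1.

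SRD5A1 went the other way (ENSG00000145545, chromosome 5, plus strand, 6633343 to 6674386). It had 5.47, 5.51 and 5.53 RPKM in resistant GNE-7883, 5.59, 5.31 and 5.47 in resistant DMSO, 3.23, 3.02 and 3.11 in sensitive GNE-7883 and 3.68, 3.68 and 3.8 in sensitive DMSO libraries. The resistant groups overlapped each other and lay above both sensitive groups. The line contrast was 0.48 ± 0.055 in DMSO and 0.74 ± 0.056 in GNE-7883. In sensitive cells SRD5A1 was lower with GNE-7883 (-0.25 ± 0.056), and in resistant cells the contrast was 0.01 ± 0.054 (95% interval -0.11 to 0.13).

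**Figure D2:**
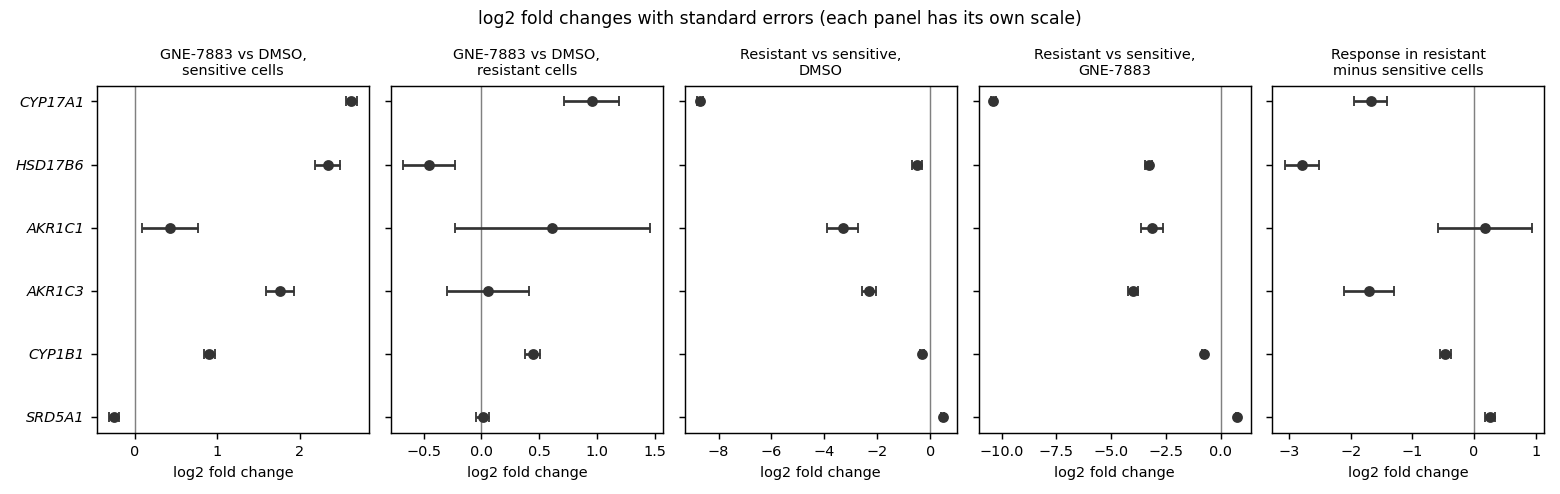
log2 fold changes of the 6 genes that passed the filter on low counts in the 5 comparisons, with standard errors as whiskers; each panel has its own horizontal scale. CYP17A1, at -8.70 and -10.38, lies far from the other genes in both contrasts between the lines, and SRD5A1 is the only gene above 0 there.

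Of the 7 genes 6 passed the filter on low counts. Counted by the rule of an adjusted p under 0.05, 4 were higher and 1 lower with GNE-7883 in sensitive cells, where the rule called 58.1% of 18035 genes tested. In resistant cells 2 were higher and 0 lower (9.22% of all genes called, 5.25% higher and 3.97% lower), or 1 higher without any of the 4 libraries named above for CYP17A1. In the resistant against the sensitive line 1 was higher and 4 lower in DMSO (48.7% called), and 1 was higher and 5 lower in GNE-7883 (61.9% called). HSD17B6 in DMSO would be called too without resistant DMSO replicate 2 or resistant GNE-7883 replicates 1 or 2, and with all libraries under a filter of at least 1 CPM in 3 libraries. For the difference of the responses 1 was higher and 4 lower (35.7% called). Groups did not overlap for 6, 2, 6 and 6 of the 7 genes in the first 4 of these comparisons, against 61.6%, 30.9%, 53.9% and 69.5% of all genes tested. The genes were chosen on these contrasts, and nothing is read from the counts. Without sensitive DMSO replicate 2 each of the 5 counts was the same.

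The other enzymes on the route from cholesterol were tested as a list of 14 genes, 10 of which passed the filter. With GNE-7883 in sensitive cells 2 rose and 2 fell (40%, against 58.1% of all genes), with a median log2 fold change of -0.05 against 0.02 for all genes. HSD3B1, which converts pregnenolone to progesterone, had 22.5 ± 0.685 RPKM in resistant GNE-7883, 16.9 ± 0.994 in resistant DMSO, 30.4 ± 1.90 in sensitive GNE-7883 and 29.8 ± 1.93 in sensitive DMSO cells (SD, n = 3). It rose with GNE-7883 in resistant cells (0.41 ± 0.067, adjusted p = 0.00112, edgeR quasi-likelihood test) and was lower in the resistant line in DMSO (-0.89 ± 0.067, adjusted p = 1.97e-08). CYB5A, the cytochrome b5 that assists the lyase step of CYP17A1, fell with GNE-7883 in sensitive cells (-0.36 ± 0.096, adjusted p = 0.00448). The cholesterol-binding STARD3 rose there (0.25 ± 0.092, adjusted p = 0.0293), a call that ended in 7 of the fits that left out 1 library, without sensitive DMSO replicate 3 (0.17) among them. TSPO, a mitochondrial cholesterol-binding protein gene, was higher in the resistant line in GNE-7883 (0.39 ± 0.16, adjusted p = 0.0441), a call that DESeq2 did not make and that ended without sensitive GNE-7883 replicate 2 or resistant GNE-7883 replicate 1. HSD3B2, a close copy of HSD3B1, had at most 16 counts in a library.

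Genes that define adrenal and gonadal steroid cells were mostly low. Of the 12 markers on their list, 5 had at most 3 counts in every library, and 1 reached a mean of 1 CPM in each group. The genes named here were picked after their values were seen. STAR, which brings cholesterol into mitochondria, and CYP11A1, which cleaves its side chain, averaged at most 0.186 and 0.316 RPKM in a group. With GNE-7883 in sensitive cells CYP11A1 fell (-0.80 ± 0.26) and STAR was not called. CYP19A1, also low, rose there (0.90 ± 0.275, adjusted p = 0.011, edgeR quasi-likelihood test) and was lower in the resistant line in DMSO (-1.41 ± 0.365). HSD3B2 and CYP21A2 had 32 and 35 counts in sensitive GNE-7883, 3 and 17 in sensitive DMSO and 1 each in either resistant group. NR5A1, which encodes SF-1, had 1 count in resistant GNE-7883, 2 in resistant DMSO, 4 in sensitive GNE-7883 and 5 in sensitive DMSO cells. NR5A2, an NR5A receptor gene that is not a marker here, was expressed, at 1.78 RPKM in resistant GNE-7883 and 1.70 in resistant DMSO cells. It was higher in the resistant line in DMSO (0.48 ± 0.094, adjusted p = 0.000556, edgeR quasi-likelihood test). With GNE-7883 in sensitive cells it was not called (0.23 ± 0.097). Of 12 markers of adrenal and gonadal steroid cells 4 passed the filter, and CYP11B1, CYP11B2, MC2R and LHCGR were at 0 in all libraries. The summed level of the list was 4.04 to 4.19 CPM in resistant GNE-7883, 3.32 to 3.87 in resistant DMSO, 8.76 to 9.21 in sensitive GNE-7883 and 4.87 to 6.66 in sensitive DMSO libraries, most of it INSL3. The mesothelial list summed to 8690 to 9750, 7480 to 8730, 11900 to 12300 and 15600 to 18900 CPM in these groups. Lists for other cells moved with the groups too. The endothelial list (4 of 6 genes tested) summed to 32.2 to 35.3 CPM in resistant GNE-7883, 22.8 to 24.2 in resistant DMSO, 180 to 196 in sensitive GNE-7883 and 49.4 to 63.7 in sensitive DMSO libraries. In each group 2 of its genes reached a mean of 1 CPM. PECAM1 and CDH5, at no more than 55 and 33 counts in a group, were not among them and added little to the sums. The sums and their rise with GNE-7883 in sensitive cells thus rest on other genes of the list, which are not named here. The liver list (3 of 8 tested) summed to 1.02 to 1.64, 0.55 to 0.828, 11.6 to 13.8 and 2.35 to 2.63 CPM in the same groups. On it 1 gene reached a mean of 1 CPM in the sensitive groups and 0 in the resistant groups. ALB, serum albumin, was not that gene, with 1 or 2 counts in a group, so the liver sums too rest on genes not named here. The blood list (3 of 8 tested) reached 7.16 CPM, the alveolar and airway list (3 of 8) 6.46 CPM and the fibroblast list (6 of 8) 1020 CPM at most. The part of these lists in the changes of the enzymes was not tested.

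Of 14 other hydroxysteroid dehydrogenases that passed the filter, 7 rose and 7 fell with GNE-7883 in sensitive cells, where 58.1% of all genes were called, with a median of 0.005 against 0.02. In resistant cells 1 rose (7.14%, against 9.22% of all genes). HSD17B11, which oxidises androstanediol, rose to 10.9 ± 0.549 RPKM in sensitive GNE-7883 cells, against 3.89 ± 0.196 in sensitive DMSO cells (1.49 ± 0.077, adjusted p = 1.84e-10). It was lower in the resistant line in DMSO (-0.59 ± 0.084) and in GNE-7883 (-1.92 ± 0.079). HSD17B10, a mitochondrial dehydrogenase, fell in sensitive cells (-0.53 ± 0.076). H6PD, which supplies NADPH to 11-beta-HSD1, rose in sensitive cells (1.13 ± 0.063) and in resistant cells (0.29 ± 0.063, adjusted p = 0.0091, edgeR quasi-likelihood test). The call in resistant cells ended without resistant DMSO replicate 1. HSD17B12 was higher in the resistant line (0.22 ± 0.054 in DMSO).

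Among 5 other aldo-keto and steroid reductases tested, 3 rose and 2 fell with GNE-7883 in sensitive cells (58.1% of all genes called), and 0 were higher and 4 lower in the resistant line in DMSO (80%, against 48.7%). The medians were 0.24 and -0.41, against 0.02 and -0.002 for all genes. AKR1B1, aldose reductase, had 64.4 ± 3.81 RPKM in resistant GNE-7883, 51.7 ± 1.05 in resistant DMSO, 209 ± 6.61 in sensitive GNE-7883 and 86.4 ± 5.09 in sensitive DMSO cells. It rose with GNE-7883 in sensitive cells (1.28 ± 0.060, adjusted p = 5.71e-11) and in resistant cells (0.31 ± 0.060, adjusted p = 0.00326), and it was lower in the resistant line in DMSO (-0.81 ± 0.060). AKR7A2 fell in sensitive cells with GNE-7883 (-0.37 ± 0.083).

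Of 7 steroid conjugation genes tested, 4 rose and 0 fell with GNE-7883 in sensitive cells (57.1% called, against 58.1% of all genes), with a median of 0.56 against 0.02. In the resistant line in DMSO 0 were higher and 4 lower (57.1%, against 48.7%). SULT1A1, a phenol sulfotransferase with the close copy SULT1A2, had 6.95 ± 0.0927 RPKM in resistant GNE-7883, 4.84 ± 0.0948 in resistant DMSO, 29 ± 0.96 in sensitive GNE-7883 and 17.2 ± 1.31 in sensitive DMSO cells. It rose with GNE-7883 in both lines (0.76 ± 0.060 in sensitive and 0.52 ± 0.066 in resistant cells), and the line contrast in DMSO was -1.90 ± 0.065 (adjusted p = 1.26e-12). PAPSS1, which makes the sulfate donor, was higher in the resistant line in GNE-7883 (0.20 ± 0.065, adjusted p = 0.0137), a call that ended without sensitive GNE-7883 replicate 2.

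Of 12 tested steroid receptors and regulators of steroidogenic genes, 8 rose and 0 fell with GNE-7883 in sensitive cells (66.7%, against 58.1% of all genes), and 3 rose and 0 fell in resistant cells (25%, against 9.22%). The medians were 0.32 and 0.01, against 0.02 and -0.003 for all genes. NR3C2, the mineralocorticoid receptor, had 1.41 ± 0.0982 RPKM in resistant GNE-7883, 1.70 ± 0.121 in resistant DMSO, 0.503 ± 0.0285 in sensitive GNE-7883 and 0.217 ± 0.0331 in sensitive DMSO cells. It rose with GNE-7883 in sensitive cells (1.22 ± 0.14, adjusted p = 1.3e-06) and was higher in the resistant line in DMSO (2.90 ± 0.12, adjusted p = 1.27e-11).

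The aryl hydrocarbon receptor list had 3 genes higher and 4 lower of 11 tested with GNE-7883 in sensitive cells (63.6%, against 58.1% of all genes), with a median of -0.12 against 0.02. Its largest fall among genes of at least 1 CPM was in SLC7A5, an amino acid transporter (-2.77 ± 0.070, adjusted p = 8.69e-14), and its largest rise in NQO1, a quinone reductase (0.47 ± 0.059). AHR, the receptor itself, was higher in the resistant line in DMSO (0.64 ± 0.062), where NQO1 was lower (-1.12 ± 0.060). Of 21 NRF2 pathway genes tested, 13 rose and 4 fell with GNE-7883 in sensitive cells (81%, against 58.1% of all genes), with a median of 0.38. In the resistant line in DMSO 7 were higher and 10 lower (81%, against 48.7%), with a median of -0.17. ABCC3, an organic anion export pump, rose with GNE-7883 in sensitive (2.34 ± 0.069) and resistant cells (1.26 ± 0.081), and SLC7A11, the cystine transporter, fell in resistant cells (-0.84 ± 0.12). TXN, thioredoxin, fell in sensitive cells (-0.50 ± 0.083). NQO1 and NFE2L2 stand in both lists.

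The list named for cytochrome P450 genes of oxysterol, bile acid and retinoid metabolism also holds others, vitamin D and drug hydroxylases among them. Of its 11 tested genes, 7 rose and 2 fell with GNE-7883 in sensitive cells (81.8%, against 58.1% of all genes). In the resistant line in DMSO 2 were higher and 6 lower (72.7%, against 48.7%). The medians were 0.94 and -0.64, against 0.02 and -0.002 for all genes. CYP3A5, a drug and steroid hydroxylase with close copies, rose in sensitive cells (2.51 ± 0.13, adjusted p = 2.66e-10) and in resistant cells (0.78 ± 0.14, adjusted p = 0.00204). CYP24A1, the vitamin D 24-hydroxylase, fell to 61.4 ± 1.85 RPKM in sensitive GNE-7883 cells, against 338 ± 38.4 in sensitive DMSO cells (-2.46 ± 0.074, adjusted p = 5.12e-13), and was lower in resistant cells with GNE-7883 too (-0.52 ± 0.073). CYP26A1, which clears retinoic acid, was lower in the resistant line in DMSO (-5.20 ± 0.19, adjusted p = 3.9e-12), at 4 to 10 counts per library against 218 to 283. CYP2R1, a vitamin D 25-hydroxylase, was higher there (5.71 ± 0.34, adjusted p = 9.57e-10), at 113 to 150 counts against 1 to 3.

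**Figure D3:**
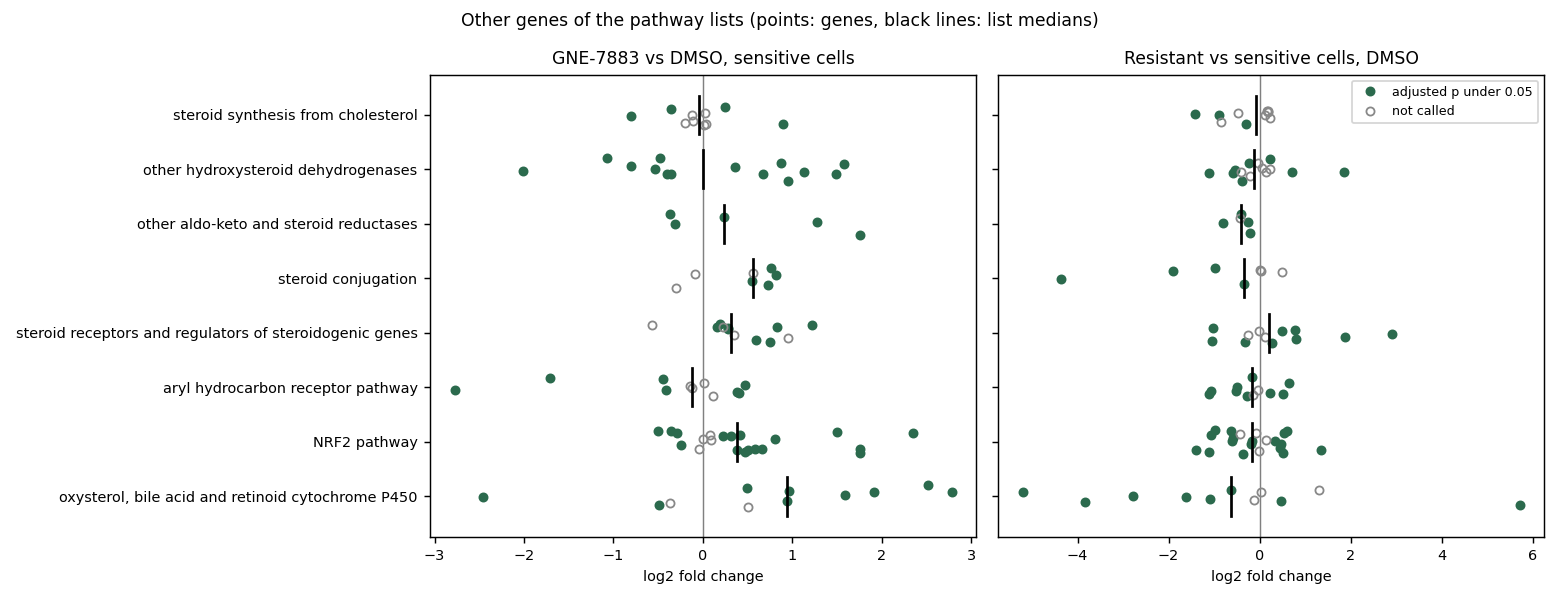
log2 fold changes of the tested genes of the 8 pathway lists with GNE-7883 against DMSO in sensitive cells and in the resistant against the sensitive line in DMSO; points are genes, filled where the adjusted p was under 0.05, and black lines are list medians. Steroid conjugation genes have a median of 0.56 on the left and -0.34 on the right, and the list of steroid synthesis from cholesterol has medians of -0.05 and -0.09.

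Over the 8 lists, 126 genes that are not among the 7 enzymes were listed and 88 were tested. With GNE-7883 in sensitive cells 44 rose and 21 fell, which is 73.9% against 58.1% of all genes, with a median of 0.24 against 0.02. In resistant cells 12 rose and 6 fell (20.5% against 9.22%), or 28 genes in all without sensitive DMSO replicate 2, where the count over all genes was 3060 in place of 1663. In the resistant line 21 were higher and 39 lower in DMSO (68.2% against 48.7%), and 21 were higher and 45 lower in GNE-7883 (75% against 61.9%). The responses of the lines differed for 48 of the genes, 16 with a higher and 32 with a lower value in resistant cells (54.5% against 35.7%).

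The protein-coding neighbours of CYP17A1 did not share its range. BORCS7, a lysosome positioning gene that starts 16.7 kb away, rose with GNE-7883 in sensitive cells (1.55 ± 0.098, adjusted p = 1.87e-09), and its line contrast was -0.33 ± 0.10 in DMSO (adjusted p = 0.0154) and -1.68 ± 0.099 in GNE-7883. SFXN2, a mitochondrial carrier gene, moved the other way, falling with GNE-7883 in sensitive cells (-2.11 ± 0.11) and being higher in the resistant line in GNE-7883 (1.42 ± 0.11). ARL3, a small GTPase gene, fell in sensitive cells (-0.33 ± 0.061). Beside HSD17B6, the short-chain dehydrogenase genes SDR9C7 and RDH16, 182.2 and 207.2 kb away, rose with GNE-7883 in sensitive cells (3.19 ± 0.44, adjusted p = 1.33e-05, and 1.58 ± 0.38, adjusted p = 0.00193) at 115 and 181 counts in all. Their line contrasts in GNE-7883 were -3.53 ± 0.46 and -2.57 ± 0.43. PRIM1, which starts 0.2 kb away on the opposite strand, fell in sensitive cells (-1.15 ± 0.084), and the co-chaperone gene PTGES3 did too (-0.55 ± 0.057).

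**Figure D4:**
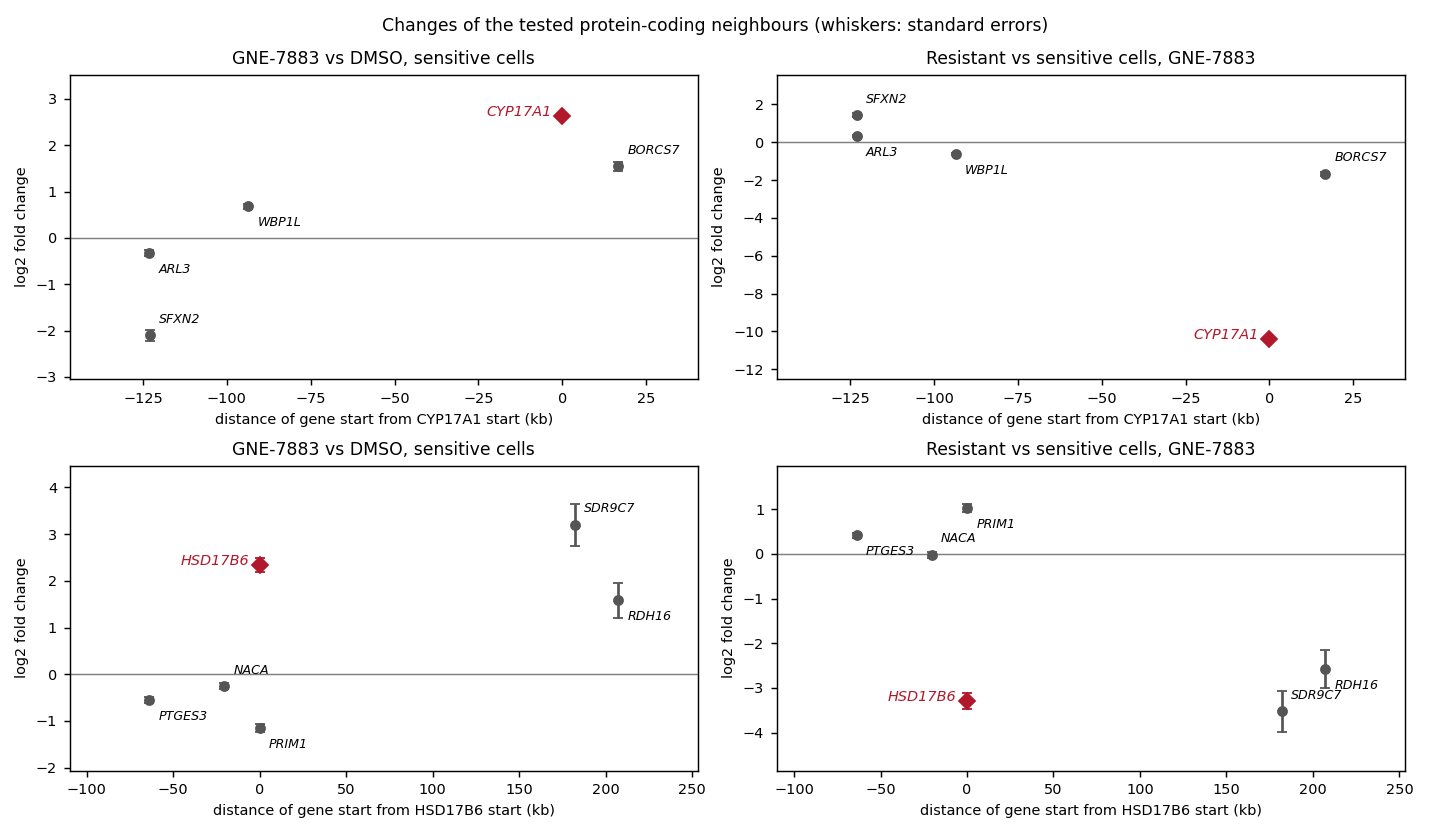
log2 fold changes of CYP17A1 (top) and HSD17B6 (bottom), shown as diamonds, and of their tested protein-coding neighbours, shown as circles with standard errors, by distance between gene starts in kb. CYP17A1, at -10.38 in the resistant against the sensitive line in GNE-7883, lies below its neighbours, which run from -1.68 to 1.42, while SDR9C7 and RDH16 lie near HSD17B6 in both panels.

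The 2 tested neighbours of the AKR1C genes, KLF6 and PITRM1, start at least 1178.0 kb away. Both fell with GNE-7883 in sensitive cells (-0.44 ± 0.059 and -0.37 ± 0.052) and were higher in the resistant line in DMSO (0.64 ± 0.058 and 0.31 ± 0.051). AKR1C4 and AKR1E2, the aldo-keto reductase genes of the same stretch, had 0 and 1 counts over the 12 libraries. Next to CYP1B1, CDC42EP3 fell with GNE-7883 in sensitive cells (-1.15 ± 0.059) and RMDN2 rose (1.43 ± 0.25). QPCT, a glutaminyl cyclase gene, was lower in the resistant line in DMSO (-2.28 ± 0.17). NSUN2, an RNA methyltransferase gene that starts 0.1 kb from SRD5A1, fell with GNE-7883 in sensitive cells (-0.58 ± 0.052) and in resistant cells (-0.21 ± 0.051, adjusted p = 0.0186).

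The genes nearest to CYP17A1 in pattern were found by the root mean square distance between log2(CPM + 0.5) values, each gene centred on its mean, over the 12 libraries and 11417 genes whose mean reached 5 CPM in some group. SFTPD, surfactant protein D, was nearest at 0.469, followed by ISM2 (0.882), the endogenous retroviral envelope gene ERVFRD-1 (1.09), SAA2 (1.21) and SAA1 (1.26). SFTPD had 1.57 ± 0.402 CPM in resistant GNE-7883, 0.614 ± 0.173 in resistant DMSO, 762 ± 14.2 in sensitive GNE-7883 and 98.2 ± 10.7 in sensitive DMSO cells (SD, n = 3). CYP17A1 had 0.478 ± 0.0731, 0.256 ± 0.0969, 638 ± 13.0 and 103 ± 3.43 CPM in these groups. SAA1 and SAA2, serum amyloid A genes, are close copies whose counts are uncertain. The points share 4 groups of libraries, so a small distance shows mainly that 4 group levels are alike.

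**Figure D5:**
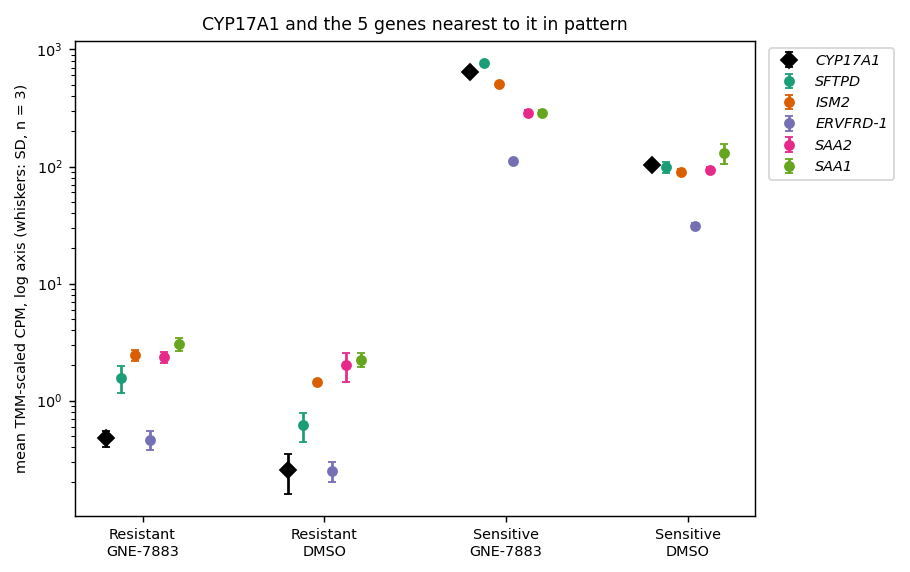
Mean TMM-scaled CPM of CYP17A1 and the 5 genes nearest to it in pattern, by group on a log axis; whiskers are SDs (n = 3). CYP17A1 and SFTPD are at 638 and 762 CPM in sensitive GNE-7883 cells and at 0.256 and 0.614 CPM in resistant DMSO cells.

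By the same distance the nearest genes were ENPP2 (0.203), CASP10 (0.207) and PCDHGB6 (0.209) for HSD17B6, and REEP1 (0.190), SULT1A2 (0.195) and LYRM1 (0.205) for AKR1C3. ENPP2, which encodes autotaxin, had 0.671 ± 0.0944 CPM in resistant GNE-7883, 0.760 ± 0.134 in resistant DMSO, 6.03 ± 0.292 in sensitive GNE-7883 and 0.896 ± 0.0815 in sensitive DMSO cells. For CYP1B1 they were WWTR1, which encodes the YAP relative TAZ (0.066), SYNJ2 (0.0826) and SOCS5 (0.0892), and for SRD5A1 they were RAD51D (0.0548), FOXF2 (0.0552) and CRCP (0.0556). Genes near AKR1C1 included AEBP2 (0.0642), and those nearest to AKR1C2 were TXNL4B (0.0559), DDX5 and ZCCHC8. For AKR1C1 and AKR1C2 the added 0.5 CPM is above most of their own values, which shrinks their range, so these neighbours carry little information.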

How the data were processed

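Per the labels, total RNA went into a kit that does not mark strand, and reads were single-end and 50 bases long. GSNAP, GRCh38.p10 and limma are named in the submitters' processing notes. The counting program, its annotation and its strand setting were not given in the sources used here. The authors deposited whole-number read counts per gene and a table of RPKM values per gene, whose ratio to the counts was a gene factor times the library total within a relative deviation of 1.31e-07 over 13411 genes. Of the 58302 identifiers 57532 matched a symbol. Counts were tested by two-sided quasi-likelihood tests of edgeR 4.0.16 (R 4.3.3) after filterByExpr by group (18035 genes kept) and TMM scaling, in a single fit to the 12 libraries with a mean for each group and 8 residual degrees of freedom. P-values were Benjamini-Hochberg adjusted within each of 5 comparisons and called under 0.05. The standard error is the log2 fold change over the root of the F statistic. The script was tested on simulated counts. Loci, overlaps and 50-base windows came from GENCODE 29, which may differ from the authors' annotation. DESeq2 1.42.0, other scalings and filters, a replicate block, left-out libraries and log2(RPKM + 0.1 or 1) were alternatives. The floors and the intervals of summed count ratios cover counting error only. Intervals of log2 fold changes were built from the standard errors of the fit, so they also reflect the spread between libraries. The enzymes and lists were chosen with earlier results of these data known. Named list genes are, per list and two-group comparison, the called genes that reach 1 CPM in some group, with the largest positive and negative log2 fold change; with them stand the 3 nearest protein-coding genes on each side of an enzyme gene and the genes nearest in pattern. Some results that the rule would name are not reported here.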

Additional observations from a re-analysis of the deposited data

Results flagged for a closer look

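Of the 24 pathway list genes that met the naming rule, 17 responded to GNE-7883 differently in the 2 lines by the test of the difference itself (edgeR quasi-likelihood, Benjamini-Hochberg over 18035 genes, 35.7% of which were called). The naming rule takes the largest called changes in contrasts of the same fit, which can raise this share. Nothing is therefore read from 17 of 24 beside 35.7%. Values are the log2 response in resistant minus that in sensitive cells, with standard errors; causes were not tested. The response was lower in resistant cells for 10 genes: CYP2R1 (-1.88 ± 0.62, adjusted p = 0.0263), CYP3A5 (-1.74 ± 0.20, 5.92e-06), NR3C2 (-1.49 ± 0.17, 4.36e-06), HSD17B11 (-1.32 ± 0.12, 3.55e-07), ABCC3 (-1.09 ± 0.11, 1.2e-06), AKR1B1 (-0.965 ± 0.084, 3.4e-07), H6PD (-0.843 ± 0.089, 2.41e-06), SLC7A11 (-0.489 ± 0.17, 0.0325), NQO1 (-0.306 ± 0.083, 0.00922) and SULT1A1 (-0.239 ± 0.089, 0.0467). It was higher in resistant cells for 7 genes: SLC7A5 (2.22 ± 0.093, 2.36e-10), CYP24A1 (1.94 ± 0.10, 2.21e-09), HSD17B10 (0.481 ± 0.11, 0.0024), HSD3B1 (0.378 ± 0.094, 0.00516), AKR7A2 (0.364 ± 0.12, 0.0245), HSD17B12 (0.335 ± 0.076, 0.00269) and TXN (0.313 ± 0.12, 0.0475). SLC7A5 and CYP24A1 fell with GNE-7883 in both lines and fell less in resistant cells. The CYP2R1 value rests on very few counts in sensitive DMSO cells, and its response in resistant cells was 0.04 ± 0.17.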

How the results depend on the processing

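No called value changed sign under the alternatives run, but 3 values that were not called did. The AKR1C1 difference of the responses (0.18) was -0.10 on log2(RPKM + 0.1), -0.015 on log2(RPKM + 1) and as low as -0.36 with 1 library left out. With GNE-7883 in resistant cells AKR1C3 (0.05) ran between -0.29 and 0.24 and SRD5A1 (0.01) between -0.0073 and 0.030 with 1 library left out. With GNE-7883 in resistant cells 1663 genes were called, and 854 to 3060 with 1 library left out; the highest was without sensitive DMSO replicate 2, and counts of 861, 950, 984 and 854 came without resistant DMSO replicates 1 and 3 and resistant GNE-7883 replicates 1 and 3. There the pathway lists had 18 calls (16 to 28) and the 7 enzymes 2 (1 to 2). Values in resistant cells rest on few counts for CYP17A1, HSD17B6 and the AKR1C genes, and AKR1C2 is at the detection limit.

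On log2(RPKM + 0.1) values moved by over 1 SD of the replicates as follows. An offset shrinks the contrast of a low gene between groups by construction. In resistant cells the CYP17A1 response thus shrank from 0.95 to 0.61 with 0.1 and to 0.15 with 1. Its response in sensitive cells did not move by over 1 SD, so the difference of the responses grew with either offset. The SRD5A1 contrasts between the lines grew with 0.1. RPKM uses library totals without the TMM factors (0.969 to 1.04), and the part of this in the SRD5A1 contrasts was not tested. CYP17A1 had 0.61 with GNE-7883 in resistant cells, -7.83 between the lines in DMSO, -9.85 between the lines in GNE-7883 and -2.02 for the difference of the responses. HSD17B6 had 2.14 with GNE-7883 in sensitive cells, -2.83 between the lines in GNE-7883 and -2.46 for the difference of the responses. AKR1C1 had 0.13 with GNE-7883 in sensitive and 0.030 in resistant cells, and -0.41 between the lines in DMSO and -0.51 in GNE-7883. AKR1C3 had -1.66 between the lines in DMSO and -3.26 in GNE-7883, CYP1B1 -0.70 in GNE-7883, and SRD5A1 0.54 in DMSO and 0.80 in GNE-7883.

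On log2(RPKM + 1), CYP17A1 had 0.15 with GNE-7883 in resistant cells, -5.59 between the lines in DMSO, -8.04 in GNE-7883 and -2.46 for the difference of the responses. HSD17B6 had 1.24 with GNE-7883 in sensitive and -0.11 in resistant cells, -0.14 between the lines in DMSO, -1.48 in GNE-7883 and -1.35 for the difference. AKR1C1 had 0.018 with GNE-7883 in sensitive and 0.0031 in resistant cells, and -0.048 between the lines in DMSO and -0.063 in GNE-7883. AKR1C3 had 0.97 with GNE-7883 in sensitive cells, -0.55 between the lines in DMSO, -1.51 in GNE-7883 and -0.96 for the difference. CYP1B1 had -0.68 between the lines in GNE-7883. SRD5A1 had -0.20 with GNE-7883 in sensitive cells, 0.66 between the lines in GNE-7883 and 0.21 for the difference. Without a filter on low counts SRD5A1 had -0.29 with GNE-7883 in sensitive cells, 0.78 between the lines in GNE-7883 and 0.31 for the difference; the cause was not tested.

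With 1 library left out, the contrast between the lines in GNE-7883 ran between -10.42 and -10.23 for CYP17A1, -3.67 and -2.85 for AKR1C1, -0.78 and -0.70 for CYP1B1, and 0.72 and 0.78 for SRD5A1. The difference of the responses ran between -1.81 and -1.34 for CYP17A1, -2.92 and -2.56 for HSD17B6, -0.36 and 1.03 for AKR1C1, -0.51 and -0.38 for CYP1B1, and 0.24 and 0.32 for SRD5A1. AKR1C1 ran between -4.12 and -2.92 between the lines in DMSO and between 0.043 and 1.43 with GNE-7883 in resistant cells.

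All 5 genes nearest to CYP17A1 in pattern stayed under both alternatives. With 2 CPM added, 1, 0, 1, 0 and 1 of the 3 nearest stayed for HSD17B6, AKR1C1, AKR1C2, AKR1C3 and SRD5A1, and with a minimum of 1 CPM 0 stayed for HSD17B6.

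Samples of different groups share replicate numbers, and same-numbered deviations correlated between -0.274 and 0.326, the highest between the DMSO groups. Samples with different numbers were not compared in this way, so whether an equal number marks a shared origin was not tested. With the replicate number as a block, 10305, 1372, 8594, 11050 and 6211 genes were called in the 5 comparisons, against 10483, 1663, 8775, 11159 and 6443 without it; the pathway lists had 63, 18, 59, 65 and 47, against 65, 18, 60, 66 and 48, and the 7 enzymes the same number of calls. Counting calls among the 7 enzymes was added after seeing the data.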
